A study of Mus musculus with 48 samples.

Results

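The genes of the epithelial sodium channel axis are described here in the mouse colon: the kinase Sgk1, the channel subunits Scnn1a, Scnn1b and Scnn1g, the mineralocorticoid receptor Nr3c2, the enzyme Hsd11b2, the ubiquitin ligase Nedd4l, the sodium pump subunit Atp1b1 and the colonic proton-potassium pump Atp12a. These 9 genes were chosen by name for their roles in sodium transport, out of 55401 rows of the count table, and all 9 were among the 15073 genes that passed the filter on low counts. Of these, 7 were over its minimum of 2.57 CPM in all 46 mice tested, Atp12a in 21 and Scnn1g in 2.

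RNA of colon tissue was sequenced in 48 male C57BL/6J mice aged 18 to 20 weeks. Control mice carried 2 floxed Bmal1 alleles and no Cre (Bmal1 fl/fl, Villin wt/wt), and their littermates, called Bmal1IEC-/-, carried the same floxed alleles with a Villin-driven Cre recombinase (Villin CRE/wt). All mice had chow freely available, lived singly with a running wheel and were killed after a first day without light, at CT1, CT5, CT9, CT13, CT17 or CT21, where CT is circadian time in hours and subjective night begins near CT12. Each of the 12 groups held 4 mice. Villin drives Cre in the intestinal epithelium, so that muscle, connective tissue and immune cells of the same samples kept an intact Bmal1, the gene of an essential part of the molecular clock. In such bulk RNA, fewer cells of a type and less RNA per cell cannot be told apart.

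Sodium leaves the contents of the distal colon through the epithelial sodium channel, ENaC, an apical channel of alpha, beta and gamma subunits (Scnn1a, Scnn1b, Scnn1g), and is then moved into the blood by the sodium-potassium pump, of which Atp1b1 is a beta subunit. Aldosterone acts on this route through the mineralocorticoid receptor, Nr3c2, while Hsd11b2 inactivates glucocorticoids that would otherwise occupy that receptor. Sgk1 is a kinase induced by both kinds of steroid; it phosphorylates the ligase Nedd4-2, the product of Nedd4l, which otherwise tags the channel for removal from the membrane. Atp12a encodes the catalytic subunit of the proton pump with which the colon takes up potassium.

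Total counts in genes ran from 3144997 to 4785844 per mouse. On these totals, a count of 0 in 1 mouse allows up to 0.627 to 0.954 CPM, counting error only. The CPM of members and markers are counts per 1000000 counts in the genes kept, scaled by the TMM method. Arntl, the gene name of Bmal1 in the table, was counted over all its exons and does not measure the deleted one. Its mean per group in control mice ran from 6.86 CPM at CT9 to 67.5 CPM at CT1, against 29.6 to 45.97 CPM in Bmal1IEC-/- mice. Epithelial markers (Epcam, Cdh1, Vil1, Krt8, Krt19, Krt20) summed to 4950 to 7645 CPM in control and 5783 to 7959 CPM in Bmal1IEC-/- mice, and smooth muscle markers to 3522 to 5620 and 3162 to 5272 CPM. Called between genotypes were 1 higher and 1 lower of the 6 epithelial markers and of 4 goblet cell markers, and, all lower, 2 of 6 of smooth muscle, 1 of 6 of fibroblasts, 1 of 5 of immune cells, 1 of 5 of neurons and glia and 2 of 3 of endothelium, and their part in the members' differences was not tested. Of all genes tested, 10.5% were called in that comparison. Every marker tested of smooth muscle, fibroblasts, neurons and glia, and endothelium had a negative log2 fold change. Their medians were -0.19, -0.13, -0.18 and -0.16 in turn, against -0.000478 over all genes. The medians were -0.19 for goblet cells, -0.08 for immune cells and 0.04 for epithelium. The 3 distal position genes Hoxb13, Hoxd12 and Hoxd13 had a median of 0. The Bmal1IEC-/- mice SV384 and SV385 at CT1 stood apart: the pair's epithelial markers summed to 7722 and 10453 CPM, and its smooth muscle markers to 881 and 3371 CPM. The tests below were fitted to the other 46 mice, which leaves 2 mice in that group, and values with all 48 are given where a call differs.

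Per kilobase of exon, Atp1b1 was the most abundant member in control mice, at 323 ± 77.2 CPM per kb (SD, n = 24 mice over 6 times), followed by Hsd11b2 at 84.0 ± 25.8. Sgk1 (38.5 ± 22.03 CPM per kb), Nr3c2 (19.8 ± 4.02) and Scnn1a (19.2 ± 2.52) came next, and the ranges of each of these neighbours overlapped. Nr3c2 lay above Scnn1a in only 13 of 24 mice. Nedd4l (7.49 ± 0.635 CPM per kb) and Scnn1b (7.04 ± 1.15) also overlapped, with Nedd4l the higher in 18 of 24 mice. Atp12a, at 0.665 ± 0.383, and Scnn1g, at 0.190 ± 0.265, were far below them. Among the channel subunits, the alpha subunit was thus measured at the highest level per kb and the gamma subunit at the lowest, with no overlap between alpha and beta. The SD of Scnn1g was above its mean. The spread of Sgk1 and Scnn1g was in good part a spread between circadian times.

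**Figure D1:**
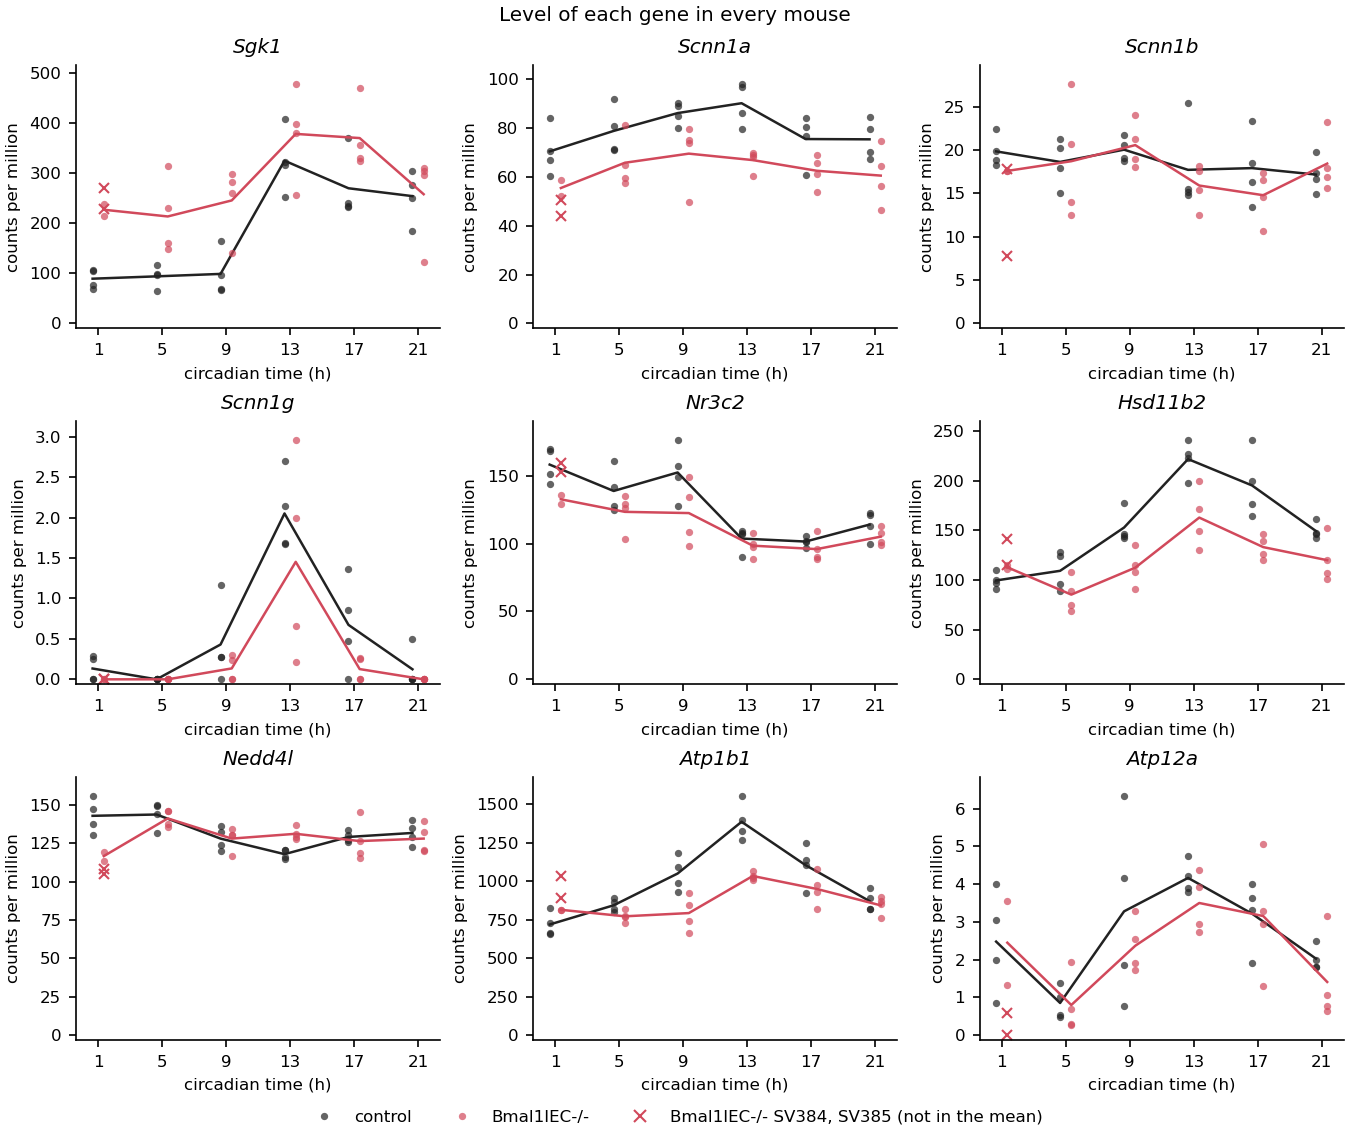
Level of each of the 9 members (CPM, axes from 0) in each mouse by circadian time (hours), 1 panel per gene, with control mice as black and Bmal1IEC-/- mice as red points, SV384 and SV385 as crosses, and lines through the group means of the 46 mice tested. Sgk1 in control mice lies between 64.5 and 165 CPM from CT1 to CT9 and between 184 and 408 CPM from CT13 to CT21, while Scnn1b shows no such step.

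Over all 6 times, 5 of the 9 members differed between genotypes, 1 higher and 4 lower in Bmal1IEC-/- mice (edgeR quasi-likelihood test with circadian time as a factor, adjusted p under 0.05). Of all genes tested, 10.5% were called in this comparison, 4.83% higher and 5.72% lower. With a fold change of at least 1.5 asked as well, 1 member, Sgk1, was left, against 1.39% of all genes. The median log2 fold change of the 9 members was -0.20, against -0.000478 over all genes, and the 5 calls were made with each of the 46 mice left out in turn and with all 48. Scnn1g passed the filter on low counts in 44 of those 46 repeats and not with all 48 mice, where 8 members were tested. None of the 9 passed a test against a fold of 1.5 itself, which 53 genes passed; without that margin 6 had an unadjusted p under 0.05.

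The 250 bases before the annotated starts were read for letters that clock and steroid factors are known to bind. RefSeq on GRCm38.p6 gave 10 such windows for 5 of the 9 members: 6 for Sgk1 and 1 each for Scnn1b, Scnn1g, Nr3c2 and Atp1b1. Both strands were searched for the E-box CACGTG and the E-prime box CACGTT (CLOCK and BMAL1), the D-box TTATGTAA or TTACGTAA (DBP and its relatives), the hexamer AGGTCA (REV-ERB and ROR), the steroid receptor hexamer AGAACA, and the steroid receptor palindrome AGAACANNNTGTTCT, which contains that hexamer on each strand. Shown are the 3 windows of Sgk1 and the 1 of Scnn1b that hold an E-box, a palindrome or a REV-ERB hexamer, in capitals, 5′ to 3′, all on the plus strand.
Sgk1 start 5, chr10:21993640-21993889: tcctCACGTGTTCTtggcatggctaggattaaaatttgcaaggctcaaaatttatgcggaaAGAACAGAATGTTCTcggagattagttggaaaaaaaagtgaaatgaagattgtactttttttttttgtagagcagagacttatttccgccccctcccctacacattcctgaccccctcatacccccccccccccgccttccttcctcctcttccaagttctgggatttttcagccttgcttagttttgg
Sgk1 start 2, chr10:21978422-21978671: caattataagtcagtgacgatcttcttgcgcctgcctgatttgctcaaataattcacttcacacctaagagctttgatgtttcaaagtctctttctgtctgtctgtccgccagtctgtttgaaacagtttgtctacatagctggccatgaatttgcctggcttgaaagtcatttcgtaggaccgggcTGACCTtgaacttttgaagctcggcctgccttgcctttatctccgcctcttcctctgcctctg
Sgk1 start 3, chr10:21985854-21986103: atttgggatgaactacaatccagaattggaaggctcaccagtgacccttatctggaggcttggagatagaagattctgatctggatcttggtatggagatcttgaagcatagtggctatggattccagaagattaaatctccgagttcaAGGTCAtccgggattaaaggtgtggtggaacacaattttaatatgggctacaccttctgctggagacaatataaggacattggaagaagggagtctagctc
Scnn1b, chr7:121864788-121865037: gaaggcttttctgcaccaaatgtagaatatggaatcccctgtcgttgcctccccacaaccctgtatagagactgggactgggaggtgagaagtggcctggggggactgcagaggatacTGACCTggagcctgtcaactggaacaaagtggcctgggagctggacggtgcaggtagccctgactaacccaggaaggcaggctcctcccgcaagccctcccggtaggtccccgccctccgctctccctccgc

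Counted back from the start site, the fifth start of Sgk1 had an E-box at -246 to -241, which runs into a steroid receptor hexamer at -242 to -237, and a palindrome at -189 to -175. The E-box was found in 6.02% of the 32817 windows of all genes and the palindrome in 0.00914%, which are 3 windows, 1 each of Acnat2, Gm35041 and Sgk1. The REV-ERB hexamer, at -63 to -58 and -101 to -96 in the starts 2 and 3 of Sgk1 and at -132 to -127 in Scnn1b, was in 14.0% of all windows. The starts 1 and 4 of Sgk1 held a steroid receptor hexamer alone, which 16.1% of windows hold. No E-prime box (3.85% of windows) or D-box (0.929%) was found in the 10 windows, and none of the letters searched in the sixth start of Sgk1 or in Scnn1g, Nr3c2 and Atp1b1. These shares are per single window, so that a match in any of the 6 windows of Sgk1 was more likely than they say. A match describes the letters and not a bound site, and the counts do not say from which start Sgk1 was read.

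**Figure D2:**
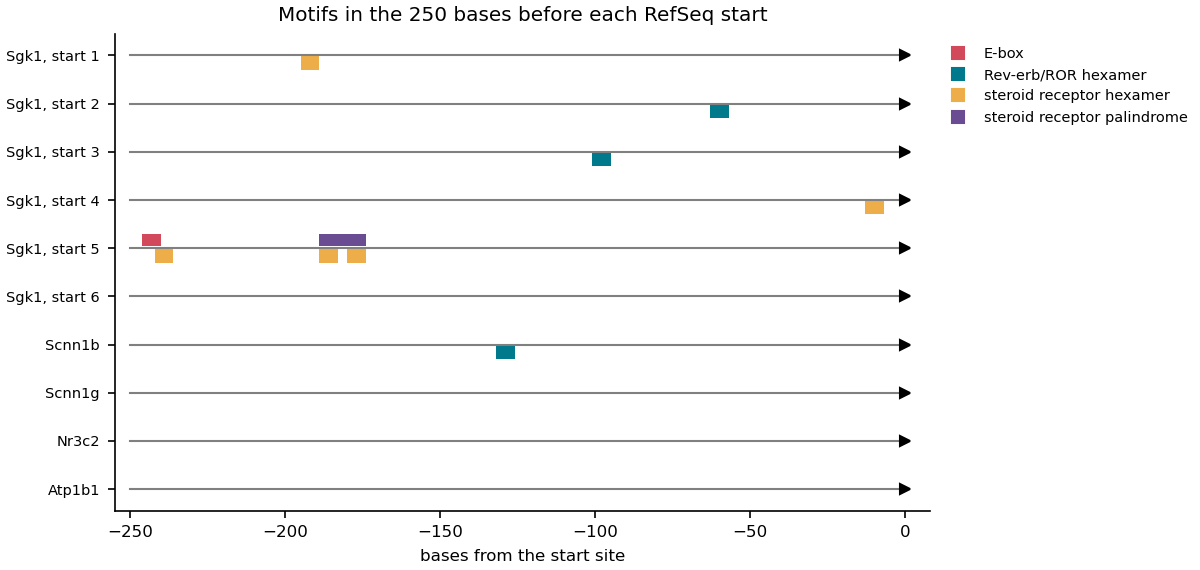
Positions of the motif matches in the 250 bases before each of the 10 annotated starts of 5 members (bases from the start site), 1 row per start and 1 colour per motif. The fifth start of Sgk1 carries the E-box and the palindrome, and 4 of the 10 rows are empty.

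Sgk1 was the member that rose. Averaged over the times it was 1.62-fold higher in Bmal1IEC-/- mice (log2 fold change 0.70, SE 0.13, adjusted p = 0.000129). Of the single times, it was called at CT1, CT5 and CT9, all in subjective day. At CT1, control mice held 76.4, 105, 68.6 and 107 CPM and the 2 Bmal1IEC-/- mice tested 215 and 239 CPM, with 229 and 270 CPM in SV384 and SV385. Every Bmal1IEC-/- mouse at that time was above every control mouse. The marker sums of the 2 mice tested also lay apart from control at CT1 for 6 of the 9 lists of markers: epithelium was at 6301 and 6754 CPM against 4950 to 5522, goblet cells at 14141 and 14309 against 19128 to 22038, and fibroblasts at 914 and 982 against 1381 to 1531, with smooth muscle, neurons and glia, and endothelium lower too. Their part in this and the other differences at CT1 was not tested. At CT5 the control values were 99.5, 116, 64.5 and 96.4 CPM, against 314, 150, 160 and 231 CPM, again with no overlap. At CT9 they were 66.6, 68.3, 96.3 and 165 CPM, against 260, 283, 141 and 299 CPM, where 1 control mouse, SV420, lay above the lowest Bmal1IEC-/- mouse.

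In subjective night the groups overlapped. At CT13 Sgk1 was at 317, 323, 253 and 408 CPM in control and 257, 381, 399 and 478 CPM in Bmal1IEC-/- mice. At CT17 it was at 371, 242, 233 and 235 CPM against 356, 330, 324 and 471 CPM, and at CT21 at 277, 251, 305 and 184 CPM against 311, 296, 304 and 122 CPM. Bmal1IEC-/- mice tested thus lay between 141 and 314 CPM by day and between 122 and 478 CPM by night, ranges that overlapped, whereas the day and night ranges of control mice did not.

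At each time on its own, 1 of the 9 members was called at CT1 (1.21% of all genes), 1 at CT5 (0.445%), 2 at CT9 (1.78%), 3 at CT13 (4.43%), 1 at CT17 (1.05%) and 0 at CT21 (0.378%). At CT21, edgeR and DESeq2 both called 0, and 2 members had an unadjusted p under 0.05. Sgk1 was 2.52-fold higher at CT1 (log2 1.33, SE 0.32, adjusted p = 0.0262), 2.26-fold at CT5 (log2 1.18, SE 0.27, adjusted p = 0.0267) and 2.46-fold at CT9 (log2 1.296, SE 0.27, adjusted p = 0.00284). Its log2 differences were 0.22 at CT13 (adjusted p = 0.729), 0.45 at CT17 (adjusted p = 0.751) and 0.02 at CT21 (adjusted p = 0.997). The call at CT1 was lost without SV454, SV468, SV479 or SV480, with an adjusted p of up to 0.230, and that at CT5 without SV442, SV446, SV447, SV439 or SV478, of up to 0.210. The call at CT9 was kept in each of the 46 repeats. Without the filter on low counts the difference at CT17 was called too, at an adjusted p of 0.000289. That run gave adjusted p-values of 6.74e-27 at CT1 and 1.44e-27 at CT5. Its log2 differences there, 1.37 and 1.18, were close to those of the main fit. Its call at CT17 is therefore given only as a dependence on the setting.

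**Figure D3:**
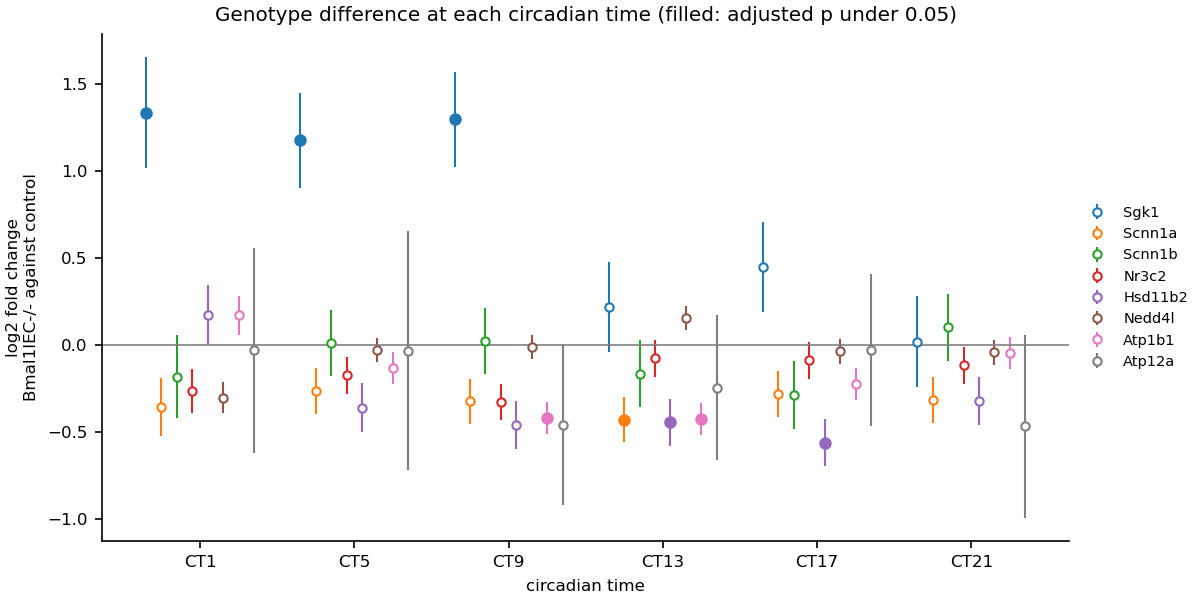
Log2 fold change of 8 members (all but Scnn1g), Bmal1IEC-/- against control, at each circadian time (CT, hours), with bars for the standard error; filled points passed the test at that time. Sgk1 has filled points at CT1, CT5 and CT9, at 1.33, 1.18 and 1.296, and the other filled points, of Atp1b1, Scnn1a and Hsd11b2, lie between -0.42 and -0.56.

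Whether this gap depends on the time of day was tested in a model chosen after the values had been seen, which sets day (CT1, CT5, CT9) against night. The genotype difference of Sgk1 was 1.03 log2 units smaller at night than by day (SE 0.23, unadjusted p = 3.49e-05), and did not pass at an adjusted p of 0.0585. The model called 0 of 9 members, against 8 genes or 0.0531% of all genes tested, and Sgk1 was the 1 member with an unadjusted p under 0.05. With all 48 mice the adjusted p was 0.0196 and in DESeq2 0.0113, and both called Sgk1. Leaving out 1 mouse at a time gave adjusted p-values from 0.00765 to 0.103, and Sgk1 passed without any 1 of 12 mice (SV469, SV443, SV420, SV421, SV434, SV476, SV440, SV477, SV410, SV450, SV481 or SV471). The change of rhythm, tested as the product of genotype with a cosine and sine of 24 h, gave an adjusted p of 0.121 for Sgk1.

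Sgk1 was rhythmic in both genotypes, with a peak at 15 h in each (JTK_cycle, adjusted p = 0.00570 in control and 0.0256 in Bmal1IEC-/- mice). The fitted log2 amplitude was 1.06 ± 0.14 (SE) in control and 0.48 ± 0.14 in Bmal1IEC-/- mice. The highest group mean was 3.64 times the lowest in control mice and 1.77 times in Bmal1IEC-/- mice. The rhythm in Bmal1IEC-/- mice was lost in 6 of 22 repeats that left out 1 mouse (SV477, SV448, SV449, SV450, SV399 and SV437, adjusted p up to 0.0634).

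In Bmal1IEC-/- mice, the channel subunit Scnn1a fell to 0.798 of its control level over all times (log2 fold change -0.33, SE 0.05, adjusted p = 1.16e-05). It was lower in mean at each of the 6 times. The group means of control mice ran from 70.3 ± 10.1 CPM at CT1 to 90.0 ± 8.79 CPM at CT13 (SD, n = 4), those of Bmal1IEC-/- mice from 55.4 ± 4.72 CPM at CT1 (n = 2) to 69.4 ± 13.4 CPM at CT9. CT13 was the only time at which the difference was called: 86.1, 96.8, 79.5 and 97.7 CPM in control mice stood above 68.9, 67.9, 69.9 and 60.5 CPM, with no overlap (log2 -0.43, SE 0.13, adjusted p = 0.0445). That call was narrow, since it was lost with all 48 mice (adjusted p = 0.0522) and without any 1 of SV396, SV397, SV424, SV479, SV480, SV395, SV448, SV449 or SV450 (up to 0.143). With all 48 mice, Scnn1a was called at CT1 instead (log2 -0.45, adjusted p = 0.0134).

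The rhythm of Scnn1a in control mice was shallow, at a log2 amplitude of 0.17 ± 0.05 with a peak at 11 h (adjusted p = 0.0283), and that call was lost in 9 of 24 repeats (without SV455, SV401, SV415, SV420, SV396, SV397, SV424, SV441 or SV476, up to 0.0628). In Bmal1IEC-/- mice it was not called (amplitude 0.13 ± 0.06, adjusted p = 0.478). A loss of rhythm in 1 genotype by this test is not a test of the difference, and the change of rhythm of Scnn1a was not called.

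Scnn1b, the beta subunit, gave no call in any comparison. Its group means lay between 17.2 ± 2.03 and 20.03 ± 1.403 CPM in control mice and between 14.8 ± 2.99 and 20.6 ± 2.66 CPM in Bmal1IEC-/- mice (log2 fold change -0.07, SE 0.08, adjusted p = 0.636). No rhythm was called in control (adjusted p = 1) or in Bmal1IEC-/- mice (adjusted p = 0.778).

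Scnn1g, the gamma subunit, was counted in single reads. At CT13 the control libraries held 9, 6, 10 and 6 reads and the Bmal1IEC-/- libraries 1, 8, 3 and 13. At the other 5 times, 20 control mice held 22 reads together, with 11 mice at 0, and 18 Bmal1IEC-/- mice held 4 reads, with 14 at 0. The reads of both genotypes were thus mostly those of CT13, where the sums were 31 and 25. Over all times the genotype test gave an unadjusted p of 0.0153 and did not pass (adjusted p = 0.101). Scnn1g passed the filter through 2 libraries of CT13 alone. Its rhythm calls (JTK_cycle, adjusted p = 0.0148 in control mice) are therefore a description. No fold change is given for times at 0. In a single mouse with 0 reads, a level under 0.627 to 0.954 CPM could not have been told from 0.

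The receptor Nr3c2 and the enzyme Hsd11b2 were both lower in Bmal1IEC-/- mice over all times, and peaked at 3 h and 15 h in turn. Nr3c2 was highest in control mice at CT1 (151, 168, 170 and 144 CPM) and lowest at CT17 (101, 102, 96.8 and 106 CPM), with no overlap. In Bmal1IEC-/- mice it went from 129 and 136 CPM at CT1 to 90.0, 96.3, 88.3 and 109 CPM at CT17. Its genotype difference was small, a log2 fold change of -0.17 (SE 0.04, adjusted p = 0.00705), and was called at none of the single times. At CT9 it was -0.33 on the log2 scale (adjusted p = 0.118), and was called there without SV420 or SV418.

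Nr3c2 was rhythmic with a peak at 3 h in control mice (adjusted p = 0.00251, log2 amplitude 0.32 ± 0.05) and in Bmal1IEC-/- mice (adjusted p = 0.0418, amplitude 0.22 ± 0.05). The latter call was lost in 10 of 22 repeats (without SV480, SV440, SV477, SV395, SV449, SV450, SV399, SV416, SV437 or SV445, up to 0.0873).

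Hsd11b2 fell to 0.780 of its control level over all times (log2 fold change -0.36, SE 0.06, adjusted p = 3.85e-05). At CT1 the direction was the opposite, though not called (log2 0.17, SE 0.17, adjusted p = 0.667). There the 2 Bmal1IEC-/- mice tested, at 110.8 and 114.7 CPM, and SV384 and SV385, at 115.6 and 141 CPM, were above all control mice (up to 110.2 CPM). In control mice it climbed from 96.9, 110, 99.9 and 91.2 CPM at CT1 to 222, 240.5, 197 and 226 CPM at CT13. In Bmal1IEC-/- mice the CT13 values were 199.9, 131, 150 and 171 CPM, where the highest mouse, SV395, lay just inside the control range (log2 -0.44, SE 0.13, adjusted p = 0.0463). At CT17 the groups did not overlap: 199.9, 164, 241 and 176 CPM in control mice stood above 120.3, 147, 126 and 139 CPM (log2 -0.56, SE 0.14, adjusted p = 0.0209).

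The CT13 call of Hsd11b2 was lost with all 48 mice (adjusted p = 0.0536) and in 10 of 46 repeats (without SV396, SV397, SV424, SV441, SV476, SV479, SV480, SV448, SV449 or SV450, up to 0.181), and the CT17 call without SV398, SV438, SV399 or SV437 (up to 0.198). At CT9 the log2 difference of -0.46 was not called (adjusted p = 0.0854) but was called without SV410. The rhythm of Hsd11b2 peaked at 15 h in both genotypes, with a log2 amplitude of 0.58 ± 0.05 in control (adjusted p = 3.82e-06) and 0.38 ± 0.08 in Bmal1IEC-/- mice (adjusted p = 0.0151). The change of rhythm was not called. With SV384 and SV385 included, the rhythm in Bmal1IEC-/- mice did not pass (adjusted p = 0.0517).

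Nedd4l, the ligase that Sgk1 acts on, varied little between groups. Its lowest control group mean was 118 ± 3.20 CPM at CT13 and its highest 144 ± 8.29 CPM at CT5, and the genotype difference was -0.03 on the log2 scale (SE 0.03, adjusted p = 0.683). At CT1 the 2 Bmal1IEC-/- mice tested, at 120 and 114 CPM, and SV384 and SV385, at 105 and 108 CPM, were below all control mice (148, 156, 131 and 138 CPM). The log2 difference there was -0.30 (SE 0.09, adjusted p = 0.0628) with 46 mice, and passed with all 48 (-0.36, adjusted p = 0.000483) and in DESeq2 with 46 (adjusted p = 0.0438). At CT13 the direction was the opposite, with 128, 129, 131 and 137 CPM in Bmal1IEC-/- mice above all control mice (115, 121, 116 and 121 CPM). That difference was not called (log2 0.15, SE 0.07, adjusted p = 0.236). Its rhythm was called in control mice, with a small log2 amplitude of 0.12 ± 0.02 (adjusted p = 0.00341), and not in Bmal1IEC-/- mice (adjusted p = 1).

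Atp1b1, a beta subunit of the sodium pump, had the only called change of rhythm among the members. In control mice it rose from 660, 728, 663 and 825 CPM at CT1 to 1327, 1552, 1268 and 1396 CPM at CT13, a ratio of group means of 1.93. In Bmal1IEC-/- mice the range of group means was narrower, from 772 ± 38.9 CPM at CT5 to 1034 ± 25.7 CPM at CT13, a ratio of 1.34. At CT13 the 4 Bmal1IEC-/- values (1036, 1021, 1009 and 1068 CPM) were all below the control values (log2 -0.42, SE 0.09, adjusted p = 0.00316).

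At CT9 the Atp1b1 values were 931, 1095, 989 and 1184 CPM in control and 738, 845, 662 and 926 CPM in Bmal1IEC-/- mice, with no overlap (log2 -0.42, SE 0.09, adjusted p = 0.00599). That call was lost without SV420 or SV410 (up to 0.0669). From CT17 to CT5 no difference was called with 46 mice. At CT1 the direction was the opposite: SV479 and SV480 were both at 814 or 815 CPM, above 3 of the 4 control mice, and with SV384 (892 CPM) and SV385 (1032 CPM) the log2 difference was 0.30 (adjusted p = 0.0195). Over all times, Atp1b1 was lower by a log2 fold change of -0.20 (SE 0.05, adjusted p = 0.00263).

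The fitted log2 amplitude of Atp1b1 was 0.43 ± 0.04 in control and 0.20 ± 0.04 in Bmal1IEC-/- mice, with peaks at 13 and 15 h (adjusted p = 3.57e-06 and 0.0178). The interaction with genotype passed at an adjusted p of 0.0230 in edgeR, making 1 of 9 members against 0.935% of all genes. It was lost without SV454, SV397, SV479 or SV480 (up to 0.0563). With all 48 mice the rhythm in Bmal1IEC-/- mice itself did not pass (adjusted p = 0.0995). The summed epithelial markers moved with the time of day too, from a control mean of 5232 CPM at CT1 to 6906 CPM at CT13, against 6528 and 6841 CPM in Bmal1IEC-/- mice, and their part in the change of Atp1b1 was not tested.

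Atp12a was scarce, at group means of 0.854 ± 0.432 to 4.16 ± 0.432 CPM in control and 0.800 ± 0.789 to 3.501 ± 0.784 CPM in Bmal1IEC-/- mice, lowest at CT5 and highest at CT13 in both. Within control mice at CT9 alone it ran from 0.768 to 6.33 CPM. No genotype difference was called (log2 -0.23, SE 0.19, adjusted p = 0.525), and its rhythm did not pass in control (adjusted p = 0.0612) or Bmal1IEC-/- mice (adjusted p = 0.156). In control mice the rhythm passed without SV454, SV468 or SV412 (down to 0.0231), in Bmal1IEC-/- mice without SV479 (0.0406) or with all 48 mice (0.0451), and in both by a cosine in edgeR (0.0256 and 0.0435).

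Leaving Scnn1g aside, 6 of 8 members were called rhythmic in control mice, where 39.6% of all genes were, and 4 of 8 in Bmal1IEC-/- mice, where 14.5% were. These 4, Sgk1, Nr3c2, Hsd11b2 and Atp1b1, were all among the 6. With Scnn1g counted in, the numbers were 7 and 4 of 9, and leaving out 1 mouse gave 6 to 8 members in control and 2 to 5 in Bmal1IEC-/- mice, where SV477, SV449, SV450, SV399 and SV437 were those whose absence moved the count most. Members did not share 1 phase: Hsd11b2 and Sgk1 peaked at 15 h and Atp1b1 at 13 h in control mice, Scnn1a at 11 h, and Nr3c2 and Nedd4l at 3 and 1 h. Of the 5 members whose upstream bases were read, Sgk1 and Scnn1b held a match, and a rhythm was called in both genotypes for Sgk1 and in neither for Scnn1b. Of those without a match, Nr3c2 and Atp1b1 had a called rhythm in both genotypes, and the counts of Scnn1g are a description. Since 6 windows were read for Sgk1 and 1 for each of the others, a match was more likely for Sgk1. A relation of matches with rhythm was not tested.

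Beyond the members, 39 genes of the same pathway were taken by role, of which 35 passed the filter. Of these, 7 were called between genotypes, 1 higher and 6 lower, where 4.83% and 5.72% of all genes were. Their median log2 fold change was -0.07. Among 19 regulators of the channel, 1 was higher and 4 were lower. Tsc22d3, the steroid-induced leucine zipper protein that acts on the channel together with Sgk1, rose (log2 0.39, SE 0.10, adjusted p = 0.00771). St14 (-0.12, adjusted p = 0.0459), a membrane protease, Spint1 (-0.17, adjusted p = 0.0125), a protease inhibitor, Usp2 (-0.43, adjusted p = 0.0290), a deubiquitinase, and Nedd4 (-0.09, adjusted p = 0.0413), a relative of Nedd4l, fell.

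A list of 3 genes set Per1, a clock gene, beside genes of receptor and steroid supply. Per1 alone of these was called, and it fell (log2 -0.60, SE 0.16, adjusted p = 0.00934). It was also the only one of the 35 with a called fold of at least 1.5. In 6 further pump subunits and FXYD proteins, which modulate the pump, log2 fold changes ran from -0.22 to -0.02 with a median of -0.17, and these genes gave none of the 7 calls. Of 7 potassium channel and proton pump genes, Kcnma1 fell (-0.24, adjusted p = 0.000227). The 2 called smooth muscle markers, Myh11 and Cnn1, were lower as well; Kcnma1 is also expressed in muscle, and the part of muscle in its difference was not tested.

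By time, Tsc22d3 was higher at CT5 and CT9, times at which Sgk1 was also higher. At CT1 its log2 difference of 0.92 was not called by edgeR (adjusted p = 0.0572). Cnksr3, a scaffold of the channel complex, was lower at CT1 (log2 -1.03, adjusted p = 0.0349). It was the 1 call of edgeR among the 35 at CT1, where 1.21% of all genes were called. DESeq2 called 4 of the 35 at CT1, and 15 had an unadjusted p under 0.05 in edgeR. Spint1 was lower at CT9, and Usp2, Per1 and Kcnk1 at CT13. None of the 35 was called at CT17 or CT21 by edgeR or DESeq2, and the unadjusted p was under 0.05 for 5 and 3 of them. A rhythm was called for 17 of 35 in control mice, where 39.6% of all genes were, and for 5 of 35 in Bmal1IEC-/- mice, which is about the 14.5% of all genes. The change of rhythm, called in 0.935% of all genes, was called for 2 of the 35, Tsc22d3 (adjusted p = 0.0311) and Usp2 (adjusted p = 0.0189).

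**Figure D4:**
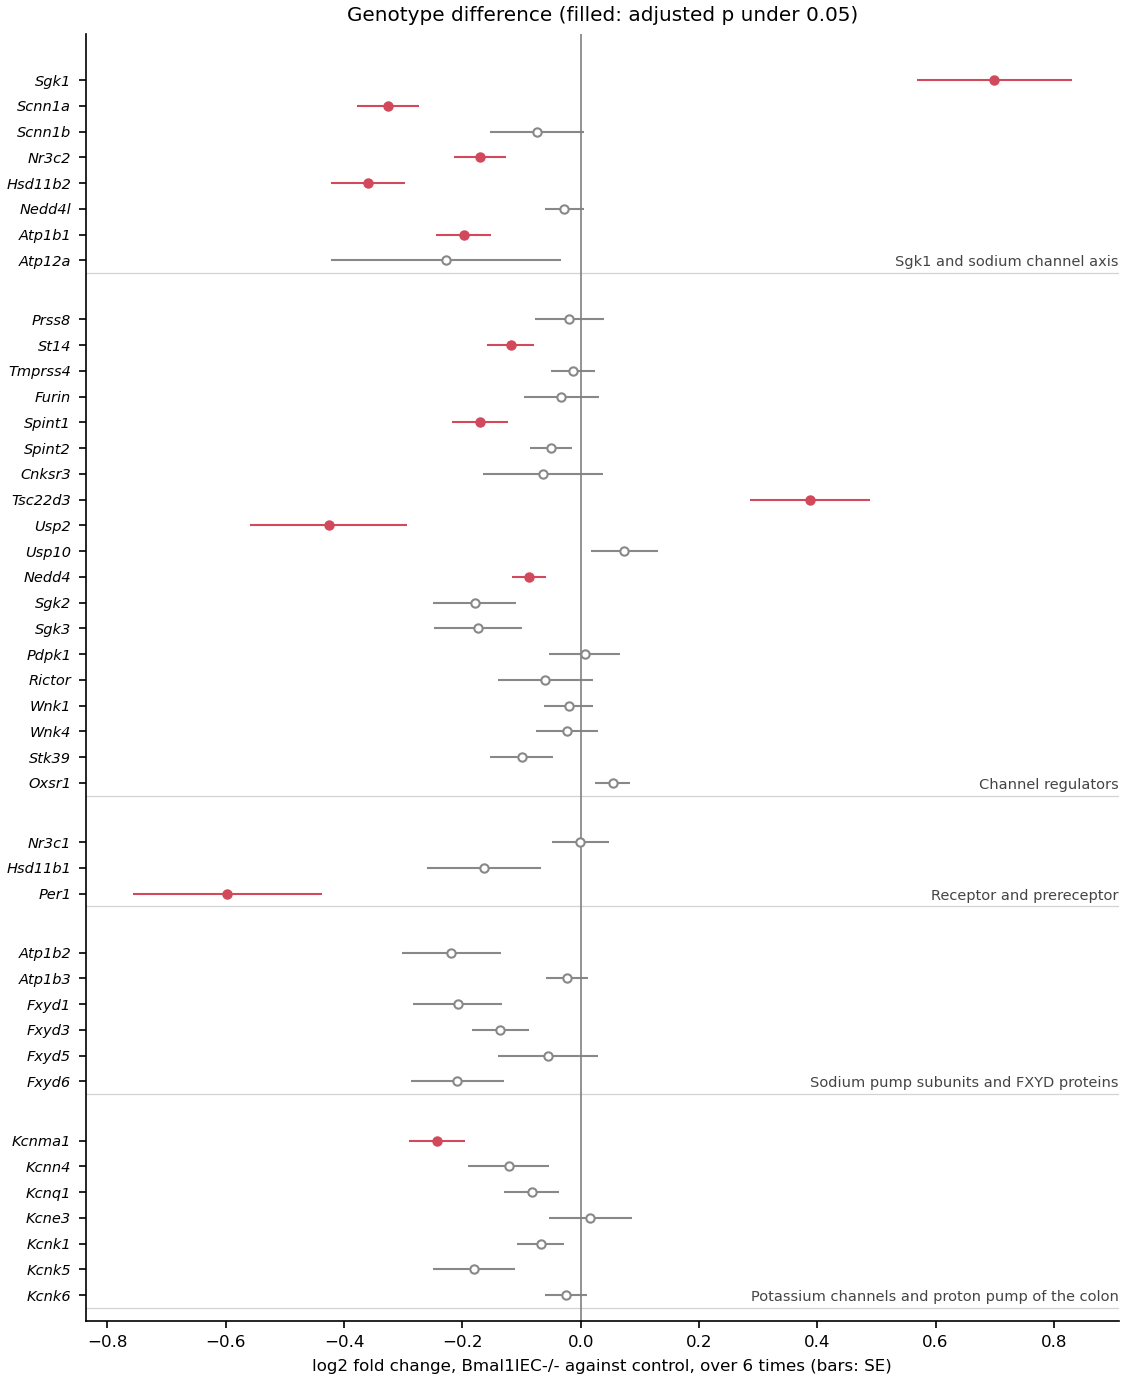
Log2 fold change over all times, Bmal1IEC-/- against control, with its standard error, for 8 members (all but Scnn1g) and the 35 other pathway genes that passed the filter, grouped by role; filled points passed the test. Sgk1 (0.70) and Tsc22d3 (0.39) are the filled points to the right of 0, and Per1 (-0.60), Hsd11b2 (-0.36) and Scnn1a (-0.33) are among those to the left.

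Mice of 1 group also differed among themselves, and Sgk1 and Atp1b1 did so together. After each group mean was subtracted, their log2 CPM correlated over 46 mice at r = 0.63 (permutation p = 3.00e-05, adjusted over 36 pairs of members 0.00108) and rho = 0.63 (permutation p = 6.00e-05, adjusted 0.00216). Without the 2 mice farthest from the median of Sgk1, r was 0.58. It was 0.65 within control mice and 0.62 within Bmal1IEC-/- mice. A mouse with more Sgk1 than its group thus tended to have more Atp1b1. Averaged over the times, the genotype moved their means in opposite directions. At CT1, however, both were higher in Bmal1IEC-/- mice (log2 1.33 for Sgk1 and 0.17 for Atp1b1, the latter not called with 46 mice). No other pair passed: the next were Scnn1b with Hsd11b2 (r = 0.44) and Scnn1a with Scnn1b (r = 0.39), both at an adjusted permutation p of 0.287. The summed markers of 9 cell types and positions, compared with Sgk1 and Atp1b1 in the same way after the pair had been seen, gave 18 relations, none of which passed (lowest adjusted permutation p = 0.298). The lowest unadjusted permutation p-values were 0.0226 for immune markers with Atp1b1 (r = -0.41), 0.0331 for smooth muscle with Sgk1 (r = -0.34) and 0.0618 for immune markers with Sgk1 (r = -0.32), so that all 3 relations were negative.

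**Figure D5:**
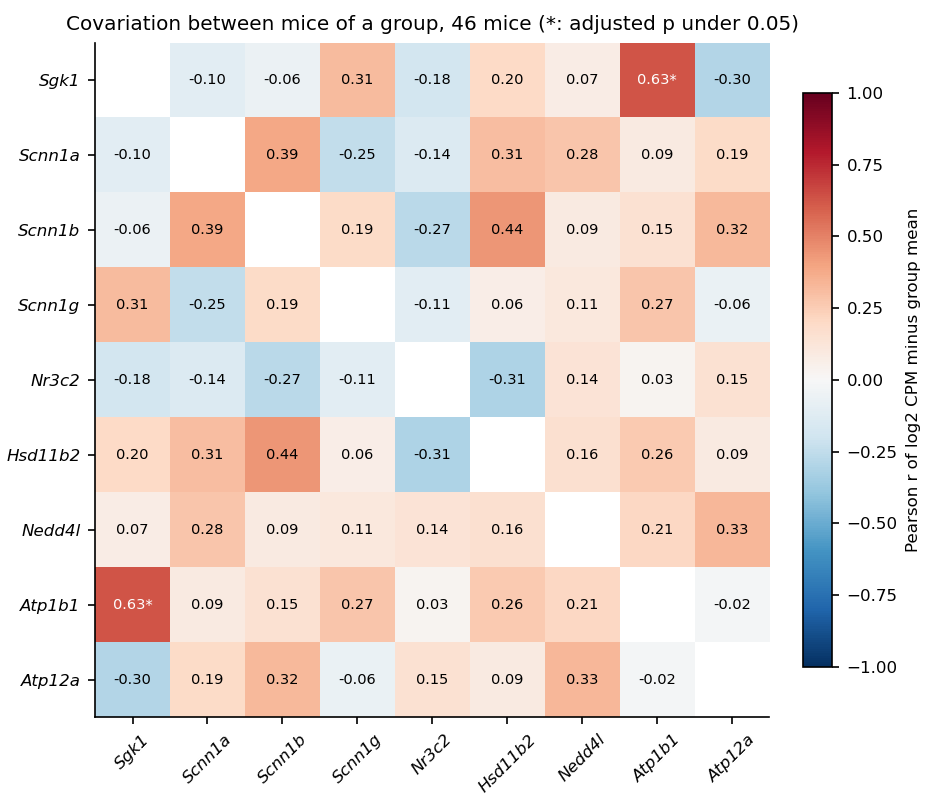
Pearson r for each of the 36 pairs of members, as a coloured grid, from log2 CPM after subtracting the mean of each mouse's own group (46 mice); a star marks an adjusted permutation p under 0.05. Sgk1 with Atp1b1, at 0.63, is the only pair with a star, ahead of Scnn1b with Hsd11b2 at 0.44.

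Sgk1 lies at chr10:21882184-21999903 (plus strand), Scnn1a at chr6:125320659-125344943 (plus), Scnn1b at chr7:121865038-121918514 (plus) and Scnn1g beside it at chr7:121734479-121768475 (plus). Nr3c2 spans chr8:76899442-77245012 (plus) and Hsd11b2 chr8:105518755-105523988 (plus), Atp1b1 chr1:164437109-164458355 (minus) and Atp12a chr14:56365068-56388550 (plus), while Nedd4l lies on chromosome 18 (GRCm38, GENCODE vM21). Counts covered all exons of a gene together. Exons of 4 members overlap those of a gene on the other strand: Nr3c2 and Gm10649 by 247 bases, Nedd4l and A330084C13Rik by 277, Atp1b1 and Nme7 by 575, and Atp12a and Gm10873 by 557. The strand setting of the counting is not given in the sources used here, so that reads of these stretches may belong to either gene.

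Over the 12 group means, the genes whose log2 level moved most like Sgk1 were Zfp553 (Pearson r = 0.96), Cgn (0.95), Fam136a (0.95), Nbeal2 (0.95) and Gfer (0.95), given as a description over shared libraries. The closest to Scnn1a was Hkdc1 (0.96), to Scnn1b Haus5 (0.91), to Scnn1g Gripap1 (0.93) and to Nr3c2 Dyrk1b (0.96). Hsd11b2 was nearest to Sh2b3 (0.96), Nedd4l to Bhlhb9 (0.92), Atp1b1 to Fa2h (0.97) and Atp12a to Cebpd (0.88).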

How the data were processed

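RNA of colon tissue was made into stranded mRNA libraries and sequenced in pairs. The authors trimmed reads with Trimmomatic 0.39, aligned them to mm10 with STAR 2.7.5c and counted exon reads of mapping quality of at least 4 per gene with featureCounts 1.4.6; the deposited values are these raw counts (FastQC 0.11.5, SAMtools 1.3.1 and DESeq2 1.22.0 also stand in the submitters' processing notes). The strand setting and the annotation are not given in the sources used here. Of 55401 gene identifiers, 55141 matched GENCODE vM21, from which names, coordinates and exon lengths were taken.

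Counts were analysed with edgeR 4.0.16 (filterByExpr over 12 groups, TMM, quasi-likelihood F tests, prior count 2 for log2 CPM) and Benjamini-Hochberg adjustment over the 15073 genes kept, at a threshold of 0.05. Models were genotype with time, 1 mean per group, genotype with a 24 h cosine and sine, and genotype with day or night, the last added after the data had been seen. Rhythms were tested by JTK_cycle, rewritten here for 12 phases of a 24 h period. Pairs of members used 100000 permutations of mice within groups. Bmal1IEC-/- replicates SV384 and SV385 were left out of the main fits, since the study shows 46 samples in its ordination and an earlier analysis inferred these mice from its normalized values; the sources do not name them, and list 4 mice for every group. Where the labels do not name separate litters or extractions, p-values measure the spread between these mice. Depth sets precision, and the limits given for a count of 0 cover counting error only. The SDs and SEs include the spread between mice.

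The members, the pathway lists and the markers were chosen with earlier results of these data known, and some genes of the pathway are not reported here. Named beyond the members are listed genes called in the genotype test or the change of rhythm, or counted at a time, the genes most like each member over 12 group means, and Arntl. Cnksr3 and Kcnk1, called at single times, were named after their values had been seen. Tried on simulated data were JTK_cycle and the edgeR tests of genotype, of genotype at CT9, of the change of rhythm, of the cosine and of day against night. Alternatives were all 48 mice, DESeq2 1.42.0, RLE size factors, no filter, each mouse left out, a test against a fold of 1.5 (glmTreat), other rhythm tests and another prior count.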

Additional observations from a re-analysis of the deposited data

Results flagged for a closer look

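The 104 groups of 4 mice looked at were 1 per member, genotype and time, without those that held no reads. In 8 of them a single value stood apart from the other 3 by Dixon's criterion. Chance gives about 1 in 20. For Sgk1 these were control mouse SV398 at CT17, at 371 CPM, and Bmal1IEC-/- mouse SV471 at CT21, at 122 CPM. For Scnn1b they were control SV396 at CT13, at 25.4 CPM, and Bmal1IEC-/- SV385 at CT1, at 7.82 CPM. For Hsd11b2 they were control SV420 at CT9, at 178 CPM, and Bmal1IEC-/- SV385 at CT1, at 141 CPM. The others were Nr3c2 in control SV424 at CT13, at 90.2 CPM, and Scnn1g in control SV441 at CT21, at 0.497 CPM, which is 2 reads where the other 3 mice had 0. With 3 mice at 0 any read stands apart, so that the rate of chance does not hold there. SV385 was not in the main tests.

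The rhythm of Atp1b1 differed between genotypes by the test of the difference itself (edgeR interaction with a 24 h cosine and sine, adjusted p = 0.0230), with a log2 amplitude of 0.43 in control and 0.20 in Bmal1IEC-/- mice.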

How the results depend on the processing

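No called result reversed under any alternative run. The sign of some differences that were not called did change, such as Scnn1b at CT5, whose log2 difference ran from -0.24 to 0.17 with 1 mouse left out. RLE size factors changed none of 147 values and a prior count of 0.5 none of 37; leaving out each mouse in turn gave 4534 values, of which 63 fell below their threshold, 22 passed it newly and 25 counts moved by over 1.5 times. Against a fold of 1.5 itself (glmTreat), the genotype test called 53 genes and 0 members in place of 1590 and 5. Leaving out 1 mouse gave 1441 to 1626 genes and 5 members each time. With no filter, the genotype test of Sgk1 gave an adjusted p of 1.44e-12 at a log2 of 0.71, against 0.000129 at 0.70. The change of rhythm was called in 281 genes with all 48 mice, in place of 141, and in 2 members with no filter, Sgk1 at an adjusted p of 0.00922; leaving out 1 mouse gave 109 to 166 genes and 0 to 1 member. The day to night model called 20 genes and 1 member with all 48 mice, 14 and 1 with DESeq2, and 1 member with no filter, in place of 8 and 0, and 7 to 16 genes and 0 to 1 member with 1 mouse left out, SV469 and SV434 being those without which the number of genes moved by over 1.5 times. At single times, 5 to 9 member calls were made with 1 mouse left out, in place of 8; without SV479 or SV480, the lone mouse left at CT1 is assumed to vary like the other groups. Rhythm in Bmal1IEC-/- mice was called in 4209 genes with p adjusted over phases only, in 3365 by a cosine in edgeR, and in 1374 genes and 2 members with no filter, in place of 2190 and 4; 1 mouse left out gave 1538 to 2720 genes and 2 to 5 members. In control mice this gave 5385 to 6076 genes and 6 to 8 members. The causes were not tested. No paired analysis was possible because the groups share no replicate numbers. Scnn1g is limited by depth: outside CT13 it had 22 reads in 20 control and 4 in 18 Bmal1IEC-/- mice, and its genotype difference did not pass adjustment.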

Other observations

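The mice SV384 and SV385 took their place among the members as follows. Their Sgk1 values, 229 and 270 CPM, lay near those of the other Bmal1IEC-/- mice of CT1. Atp12a was at 0 and 0.601 CPM, at or under what a count of 0 allows. Scnn1a, at 44.0 and 50.5 CPM, was lower than in the 2 other mice of the group (58.7 and 52.0 CPM), while Nr3c2, at 153 and 159 CPM, was higher (129 and 136 CPM). Their distal position markers summed to 2.71 and 9.06 CPM, below the 10.5 to 24.6 CPM of the other 46 mice, and their anterior position markers to 22.98 and 24.0 CPM, below 50.3 to 88.8 CPM. The part of these differences in the members' values was not tested.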
